A study of Homo sapiens with 4 samples.

Results

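DYNC1I2, DYNLRB1, DYNC2I1 and DCTN1 encode subunits of the microtubule motor cytoplasmic dynein and of its partner dynactin, and they are described here by the sequencing peaks that lay in their gene spans after an RNA pull-down. They are 4 of 958 annotated genes with a peak in any list. They were selected on the presence of peaks in these same lists, so their peak counts, signals and ranks are a description and no test was made on them. RNA of RD cells, an embryonal rhabdomyosarcoma line grown without any added agent, was captured with biotinylated antisense probes and sequenced. The even and odd probe sets were both directed at exon 2 of ZNF609, the exon that forms the circular RNA circ-ZNF609, and the LacZ set was directed at a bacterial mRNA as the control. Each of these 3 groups was 1 library of the same untreated line, and the fourth sample, the total lysate, was not analysed here.

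Cytoplasmic dynein carries cargo along microtubules toward their minus ends. Its heavy chains hold the motor, its intermediate chains link the motor to cargo and to dynactin, and small light chains bind the intermediate chains. Dynactin is a separate complex that dynein needs for long movements and for its work at the mitotic spindle. A related motor, dynein 2, moves material inside cilia and has intermediate chains of its own.

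The deposited peaks came without replicates, and every value below belongs to 1 library. The even list held 502 peaks with 482418 reads in peaks, the odd list 542 peaks with 279415 reads, and the LacZ list 722 peaks with 219401 reads. Signal is given as reads per bin of 170 bases, averaged over adjacent bins joined into a peak, and it is not scaled to library size. It is therefore ranked within a list, with rank 1 the strongest. The intervals given are exact Poisson or Clopper-Pearson 95% intervals and cover counting error only, as reads without molecular identifiers are not independent molecules. The lists name called peaks alone, so a gene without a peak in a list may still have had reads there. Because the lysate was not analysed here, more efficient capture of an RNA and a larger amount of it in the cells cannot be told apart. ZNF609 itself had 1 even peak, 3 odd peaks and 0 LacZ peaks. Of 10 muscle lineage markers, 4 had a peak in some list, the even list holding 4 of them, the odd list 3 and the LacZ list 1. They were DES, TNNT1, TNNT2 and ACTC1, and the 6 in none of the lists included MYOD1, MYOG and MYF5. Among all 20056 annotated protein-coding genes, 4.22% had a peak in any list, 1.54% an even, 1.64% an odd and 2.22% a LacZ peak. The marker list was drawn up with earlier results known, so nothing is read from its counts. Peak lists after a pull-down do not measure whether the markers were expressed.

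The 4 genes held 12 peaks in 9 separate places. The odd list had 7 of these peaks in 4 genes, the even list 3 peaks in 2 genes and the LacZ list 2 peaks in 2 genes. Over all 20056 annotated protein-coding genes, 1.54% had an even peak, 1.64% an odd peak and 2.22% a LacZ peak, and since peaks chose the members nothing is read from that contrast. The member peaks took 0.209% (0.196 to 0.222) of the reads in even peaks, 1.19% (1.15 to 1.23) of those in odd peaks and 0.152% (0.136 to 0.169) of those in LacZ peaks. Of the 12 peaks, 5 lay above the median signal of their list. These were 0 of the 3 even peaks, 4 of the 7 odd peaks and 1 of the 2 LacZ peaks.

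**Figure D1:**
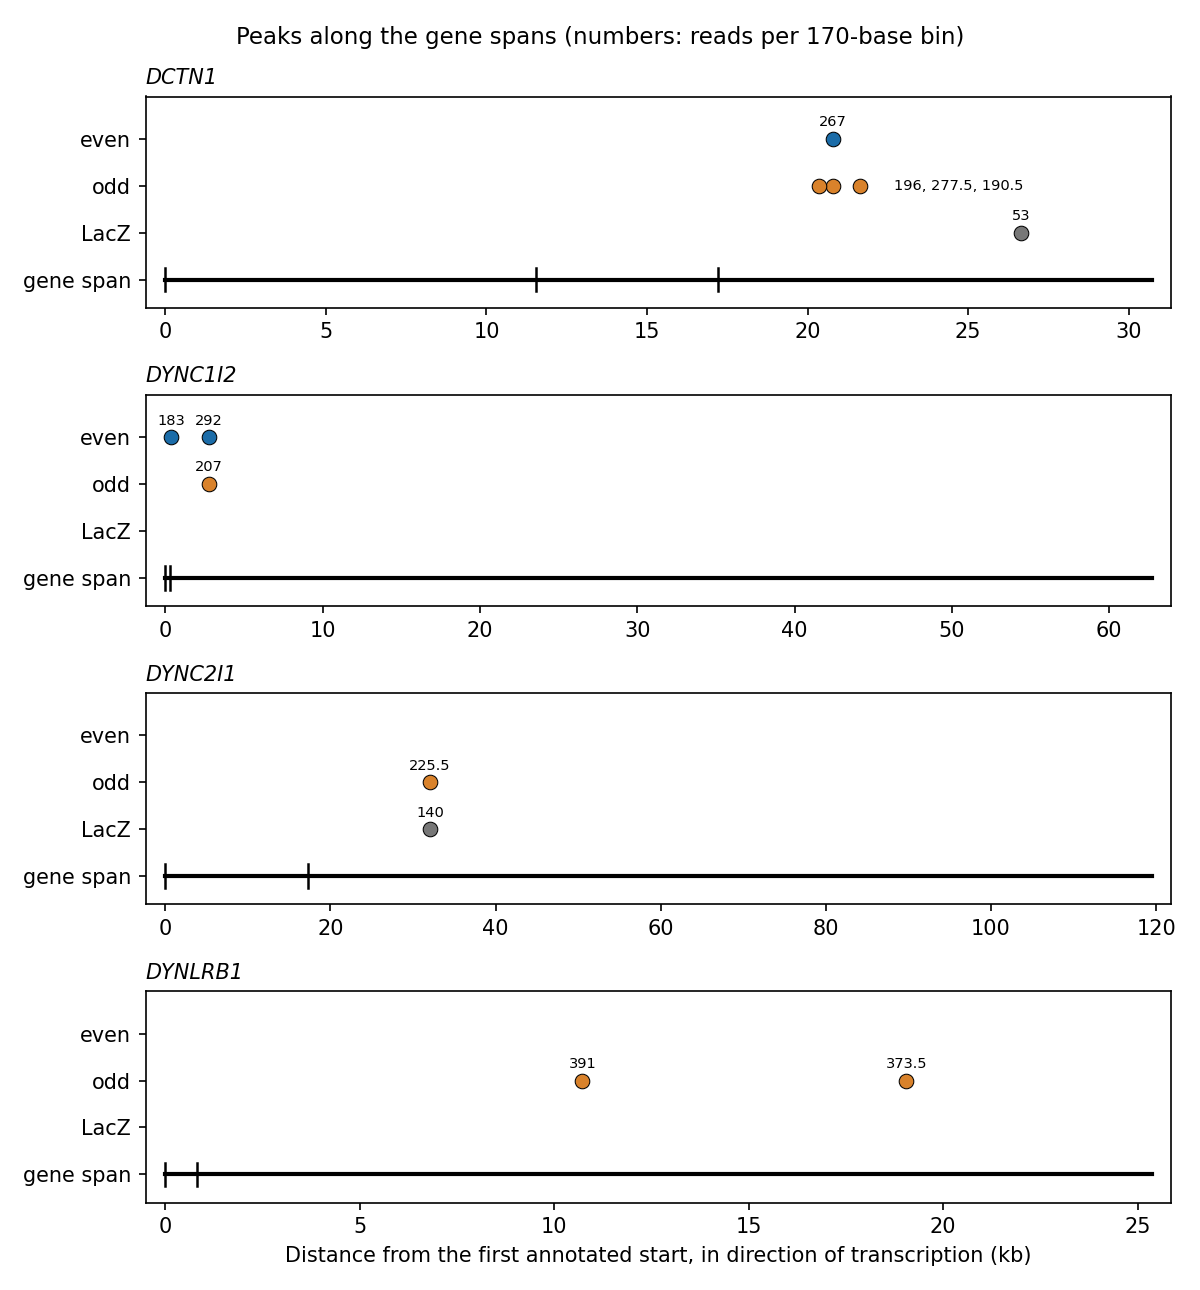
Peaks of the even, odd and LacZ libraries (coloured points, labelled with reads per bin) along the 4 gene spans, drawn as black lines with ticks at annotated starts; the x axis is the distance in kb from the first annotated start in the direction of transcription. The DYNC1I2 peaks sit close to the start, the DYNLRB1 peaks are odd alone, the DYNC2I1 place is shared by odd and LacZ, and the DCTN1 even and odd peaks lie together, away from its LacZ peak.

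DYNC1I2 encodes an intermediate chain of cytoplasmic dynein 1, the chain that contacts dynactin. It was the 1 member with even and odd peaks and 0 LacZ peaks, a class that held 42 of the 847 protein-coding genes with a peak in any list (4.96%). The gene (gene ID 1781) lies on the plus strand of chromosome 2, from 171687469 to 171750158 on GRCh38, a span of 62690 bases with 2 annotated starts. Its peaks were each 1 bin wide and lay in the first part of the gene.

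The place shared by both ZNF609 probe sets was chr2:171690141-171690310, which begins 2672 bases after the first annotated start and 4.26% of the way along the span. There the even library had 292 reads (259 to 327) and the odd library 207 reads (180 to 237). The even signal was at rank 253 of 502 and the odd signal at rank 290 of 542, so the peak sat near the middle of both lists. The authors' deposited p-value was 0.0026 for the even peak and 0.00667 for the odd peak, so with a stricter p-value limit of 0.001 DYNC1I2 had 0 peaks in every list. That limit kept 34.7% of all even peaks, 25.6% of all odd peaks and 37.0% of all LacZ peaks, so most peaks of any gene were lost under it. Among the 30 peaks that were identical in the even and odd lists and did not touch a LacZ peak, the unscaled ratio of even to odd reads per bin had a median of 1.38, and an interquartile range of 0.993 to 2.0. The DYNC1I2 ratio was 1.41, with 15 of these peaks below it and 14 above it.

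The even library had a further DYNC1I2 peak at chr2:171687761-171687930, with 183 reads (157 to 212) at rank 378 of 502 and a deposited p-value of 0.00451. It began 6 bases after the second annotated start of the gene, and 2210 bases separated it from the shared place. The odd and LacZ lists had no peak there. A peak that touches the window from 250 bases before to 50 bases after an annotated start was uncommon, with 6 of 502 even peaks (1.2%), 16 of 542 odd peaks (2.95%) and 19 of 722 LacZ peaks (2.63%). The first 30 bases from that start, chr2:171687755-171687784 on the plus strand of GRCh38.p14 as given by RefSeq, are shown to mark the listed edge of the peak, with the 24 bases inside the peak in capitals.
DYNC1I2, second annotated start: gtgtgcTTTGGAAAGCCGCGGAGCTGGTGG
Peak edges are lines of a fixed grid of 170 bases and strand was ignored, so this edge does not place the reads, or the start they came from, to the base. Of the even peaks in the span of a single protein-coding gene, 13 of 343 (3.79%) began within the first 5% of it, and both DYNC1I2 even peaks were among these. The median place was 59.7% of the span.

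DYNLRB1 encodes a roadblock-type light chain, a small subunit found in both cytoplasmic dynein 1 and dynein 2. It had 2 odd peaks, 0 even peaks and 0 LacZ peaks. Odd peaks alone were found in 182 of the 847 protein-coding genes with a peak (21.5%), and 63 of those 182 genes had more than 1 odd peak. The gene (gene ID 83658) lies on the plus strand of chromosome 20, from 34515602 to 34540958, a span of 25357 bases.

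The DYNLRB1 peaks had the highest signal among the members. At chr20:34526151-34526490 the odd library had 391 reads per bin (364 to 419), at rank 112 of 542, with a deposited p-value of 3.76e-05. At chr20:34534481-34534820 it had 373.5 reads per bin (347 to 401), at rank 122, with a deposited p-value of 9.98e-05. These intervals overlap, and a difference between the places was not tested. Each peak was 2 bins wide, and 7990 bases separated them, with the first beginning 41.6% and the second 74.5% of the way along the span. Together they took 0.547% (0.520 to 0.575) of the reads in odd peaks, the largest share of any member in any list. Ranked by the deposited p-value they stood higher still, at ranks 36 and 49 of 542.

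DYNC2I1 encodes an intermediate chain of dynein 2, the ciliary motor, and is the one member tied to that motor alone. Its peaks came from the odd probes and from the LacZ probes, with 0 even peaks. That class held 59 of the 847 protein-coding genes with a peak (6.97%). The gene (gene ID 55112) spans chromosome 7 from 158839245 to 158958698 on the plus strand, and at 119454 bases it is the longest of the members.

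The odd and LacZ peaks of DYNC2I1 occupied the same 340 bases, chr7:158871121-158871460, which begin 31876 bases after the first annotated start. The odd library had 225.5 reads per bin (205 to 247) there, at rank 268 of 542, and the LacZ library had 140 reads per bin (124 to 157), at rank 270 of 722. The deposited p-value was 0.00168 for the odd peak and 3.16e-05 for the LacZ peak, which stood at rank 110 by p-value. At a limit of 0.001 the LacZ peak remained and the odd peak did not. The control probes also recovered RNA of this place, and the odd peak ranked in the top 49.4% of its list and the LacZ peak in the top 37.4% of its own. The unscaled ratio of odd to LacZ reads per bin was 1.61. Among the 24 identical odd and LacZ peaks that did not touch an even peak the median ratio was 2.52, and 3 of the 24 had a lower ratio than DYNC2I1 and 20 a higher one.

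DCTN1 encodes p150Glued, the large dynactin subunit that binds microtubules and the dynein intermediate chains. It had 1 even peak, 3 odd peaks and 1 LacZ peak. Peaks in all 3 lists were found in 45 of the 847 protein-coding genes with a peak (5.31%), and 3 or more odd peaks in 43 of the 328 protein-coding genes with an odd peak (13.1%). The gene (gene ID 1639) lies on the minus strand of chromosome 2, from 74361155 to 74391866, a span of 30712 bases with 3 annotated starts.

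The even peak of DCTN1 and the central odd peak were identical, at chr2:74370921-74371260. The even library had 267 reads per bin (245 to 291) there, at rank 274.5 of 502, and the odd library had 277.5 (255 to 302), at rank 193 of 542. The deposited p-value was 0.00383 for the even peak and 0.00317 for the odd peak, and at the limit of 0.001, which a minority of each list passed, DCTN1 had 0 peaks in every list. The unscaled ratio of even to odd was 0.962, with 3 of the 30 identical peaks below it and 26 above it. The DCTN1 ratio thus lay among the lower of the 30, and the DYNC1I2 ratio near their middle. These positions carry no interval and rest on 1 library per probe set, and a difference between the 2 genes was not tested.

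The other odd peaks of DCTN1 flanked the shared one. Toward the start of the gene lay a peak 1 bin wide at chr2:74371431-74371600 with 196 reads per bin (170 to 225) at rank 313. Toward the end of the gene lay a peak 2 bins wide at chr2:74370071-74370410 with 190.5 reads per bin (172 to 211) at rank 326. Gaps of 170 and 510 bases separated them from the shared peak, so the odd peaks covered parts of 1 stretch of 1530 bases. The stretch began 20266 bases after the first annotated start and 3067 bases after the last of the annotated starts. The signal of the central peak lay above that of both flanking peaks. The intervals, which cover counting error only, do not overlap, and the difference was not tested.

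The LacZ peak of DCTN1 was elsewhere, at chr2:74365141-74365310, 4760 bases beyond the nearest odd peak and 3986 bases before the end of the gene. It had 53 reads (40 to 69), at rank 625.5 of 722, and a deposited p-value of 0.00504. It was the weakest of the member peaks in reads per bin and in rank, and with each list trimmed to its 502 strongest peaks DCTN1 had 0 LacZ peaks. That trimming kept 69.5% of all LacZ peaks. No LacZ peak touched the stretch with even and odd signal. Over the whole lists, 14.7% of even peaks and 16.2% of odd peaks overlapped a LacZ peak, so nothing is read from that absence.

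**Figure D2:**
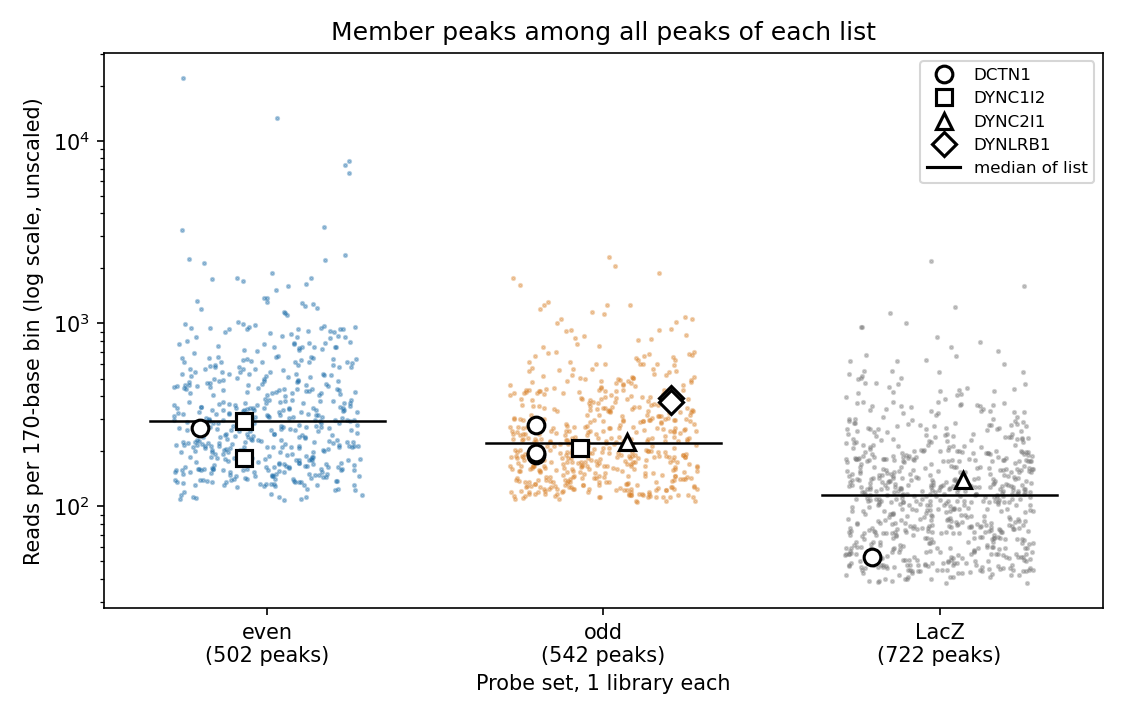
Reads per 170-base bin (log scale, unscaled) of all peaks of the even, odd and LacZ lists, 1 library each, with the member peaks as open symbols and the list median as a bar. The 2 DYNLRB1 peaks stand highest among the members, the even peaks of DYNC1I2 and DCTN1 lie at or under the even median of 293, and the DCTN1 LacZ peak lies close to the lower end of its list.

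Of the 3 even member peaks, 2 were identical to an odd peak and 0 touched a LacZ peak, and over the whole lists 52 of the 93 even peaks that overlapped an odd peak were identical to it. Of the 7 odd member peaks, 2 touched an even peak and 1 a LacZ peak, and of the 2 LacZ member peaks 1 touched an odd peak and 0 an even peak. Over the whole lists, an odd peak was overlapped by 18.5% of even peaks and a LacZ peak by 14.7% of them. For odd peaks the shares were 17.3% with even peaks and 16.2% with LacZ peaks, and for LacZ peaks 10.2% with even peaks and 12.0% with odd peaks. On such a grid identical edges do not show agreement to the base.

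The deposited lists also hold a score for each peak, whose meaning no source used here gives. At each of the 3 shared places the score was the same in both lists. The lowest signal among listed peaks went up with the score, and peaks of a high score ranked lower by p-value than by reads per bin. Across all peaks, Spearman's rho between the score and the p-value rank minus the signal rank was 0.865 over the 502 even peaks, 0.81 over the 542 odd peaks and 0.85 over the 722 LacZ peaks, a description over peaks that share a library. All 5 member peaks with a score of 0.00496 or more ranked lower by p-value than by signal, and all 7 with a score of 0.00271 or less ranked higher. These cuts were read from the same 12 peaks, and each shared place is counted in both of its lists, so the split is a description only. The shared place of DYNC1I2 had a score of 0.00541 and stood at rank 424.5 of the odd list by p-value, against rank 290 by signal. The first DYNLRB1 place had a score of 0.00192 and the DYNC2I1 place one of 0.00237. The DYNC2I1 peak stood at rank 185 of the odd list by p-value, against rank 268 by signal.

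**Figure D3:**
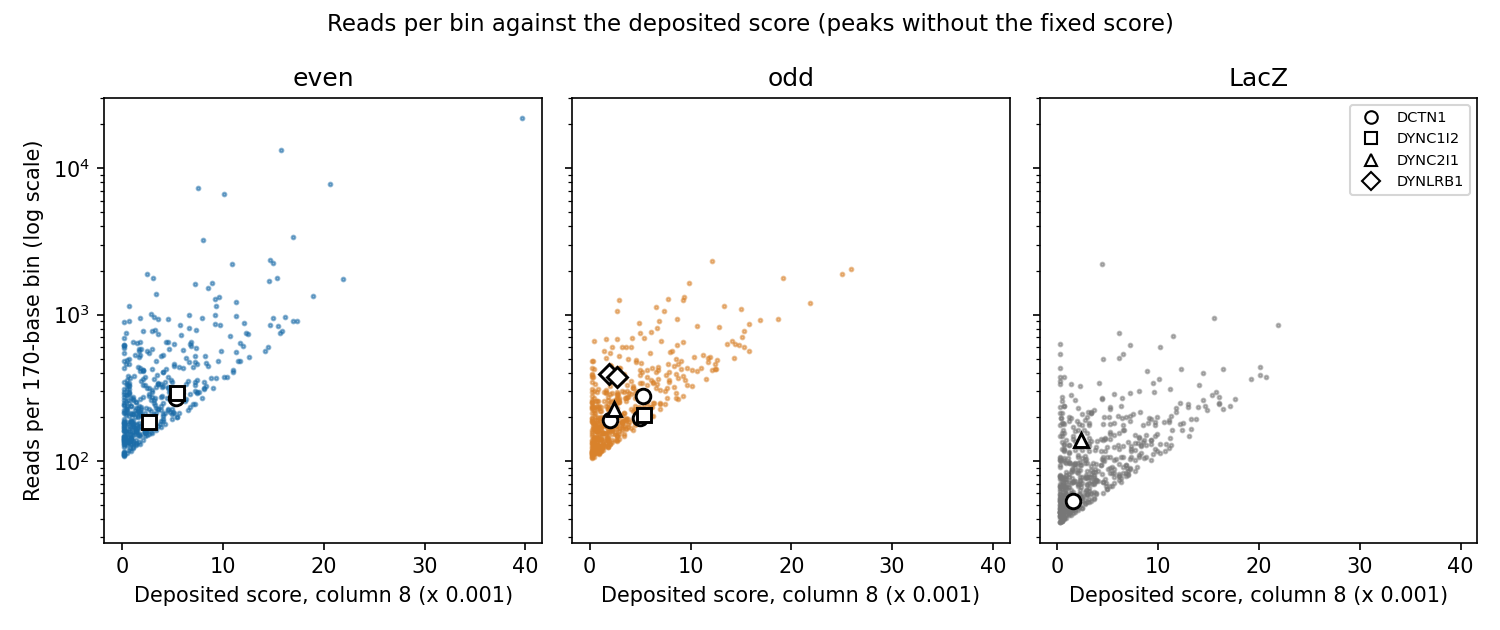
Reads per 170-base bin (log scale) against the deposited score (x axis, in units of 0.001) for the peaks of the even, odd and LacZ lists without the fixed score value, with the member peaks as open symbols. The lower edge of each cloud rises with the score, the DYNC1I2 odd peak lies near that edge, and the DYNLRB1 peaks lie well above it.

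That lower edge gives the fewest reads among listed peaks of a like score, which is not the number a place needed to be listed. At the shared DYNC1I2 place, the weakest of 18 LacZ peaks of the same width and of a score within 0.0005 had 64 reads per bin. The 16 such even peaks began at 192 and the 17 such odd peaks at 187, against the 292 even and 207 odd reads of DYNC1I2. At the shared DCTN1 place, the weakest of 10 comparable LacZ peaks had 67 reads per bin, and the even and odd ones began at 214.5 and 200. For the first DYNLRB1 place, comparable even peaks began at 135.5 reads per bin (25 peaks) and LacZ peaks at 46.5 (30 peaks). The even and LacZ reads at that place itself are not known. At the DYNC2I1 place, where the even list had no peak, comparable even peaks began at 154.5 reads per bin (19 peaks).

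**Figure D4:**
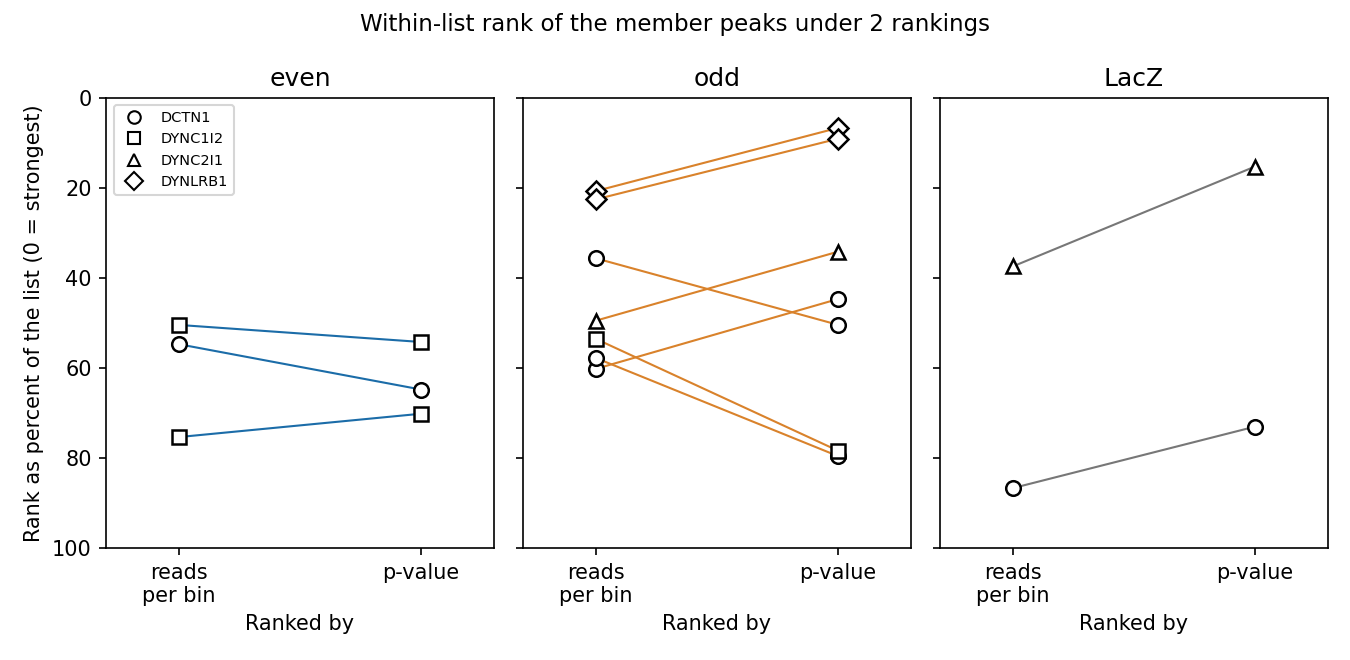
Rank of each member peak as a percent of its list (y axis, 0 is the strongest) when peaks are ranked by reads per bin (left) or by the deposited p-value (right), for the even, odd and LacZ lists. The DYNLRB1 peaks and the DYNC2I1 peaks stand higher by p-value, and the odd DYNC1I2 peak stands lower.

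The members were set in the wider family of listed motor genes. Of 29 core subunit genes of dynein 1, dynein 2 and dynactin, 25 had no peak in any list, and the remaining 4 are the members. The genes without peaks include the heavy chain genes DYNC1H1 and DYNC2H1, the motors themselves, and the dynactin genes DCTN2 and ACTR1A, which encode dynamitin and the filament subunit Arp1. By complex, 1 of 5 dynein 1 genes, 1 of 6 shared light chain genes, 1 of 5 dynein 2 genes and 1 of 13 dynactin genes had a peak. With regulators, cargo adaptors and axonemal dynein added, 9 of 67 genes (13.4%) had a peak, against 4.22% of all protein-coding genes. There were 3 with an even, 6 with an odd and 5 with a LacZ peak, and the even count was 2 when each peak was given to 1 gene. These shares include the members, which were chosen for having peaks, and the list was drawn up with earlier results known, so no enrichment is read from them.

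Among regulators and adaptors, 4 of 21 genes had a peak, against 4.22% of all protein-coding genes, and no enrichment is read from this. Of these 4 genes, 0 had an even peak. Nothing is read from that count, as 36.5% of the 847 protein-coding genes with a peak had an even one. NUMA1, which anchors dynein at spindle poles and the cell cortex, had odd peaks of 300 and 165 reads per bin, at ranks 172 and 386.5, and a LacZ peak of 86.5 reads per bin at rank 457 of 722. The NUMA1 odd peaks also lay in NUMA1-AS1, and without strand the pair could not be told apart. SPAG9, which encodes a scaffold that links motors to cargo, had odd peaks of 195.5 and 165 reads per bin and none in the other lists. NIN, which encodes the centrosomal adaptor ninein, had a LacZ peak of 58.3 reads per bin at rank 595. RAB11FIP3, an adaptor of recycling endosomes, had LacZ peaks of 51.5 and 47 reads per bin at ranks 634.5 and 668.5, in a stretch that also holds 2 other annotated genes.

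Of 17 axonemal dynein genes, which build the beating motors of cilia and flagella, DNALI1 alone had a peak, an even one of 178 reads per bin at rank 387.5 of 502. That peak also lay in GNL2, so it cannot be given to DNALI1. Kinesins are the motors that mostly walk the other way along microtubules, and 3 of 26 listed kinesin genes (11.5%) had a peak. Of all protein-coding genes, 4.22% had a peak in any list. The axonemal and kinesin lists were drawn up with earlier results known, so no enrichment is read from either count. KIF1A resembled DYNC2I1 in having an odd and a LacZ peak over the same bases, with 234 odd reads per bin at rank 250 and 101 LacZ reads per bin at rank 411, a ratio of 2.32. KIF1C had a LacZ peak of 138 reads per bin, and KLC1, a kinesin light chain gene, had an even peak of 222 reads per bin. None of the 3 kinesin genes had both an even and an odd peak, which 10.3% of the 847 protein-coding genes with a peak had, so nothing is read from that count.

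Genes of like pattern were sought among those with peaks in the same lists, by the summed difference in the percentile rank of the strongest peak. For DYNC1I2, out of 45 genes, the nearest were MDN1 and the overlapping MDN1-AS1, which share their peaks, at 13.5 percentile points over 2 lists. For DYNC2I1, out of 61 genes, SPTBN1 lay at 4.41 and PSMD2 at 7.45 points over 2 lists. For DCTN1, out of 46 genes, PLEC lay at 27.2 and SAMD4B at 39.2 points over 3 lists. For DYNLRB1, out of 203 genes, NFIC and NEFL each lay at 0.185 points, a distance over 1 list and so no more than a neighbouring rank.

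No member peak lay in a second annotated gene, and none held the fixed score value of 0.01. Only a minority of the peaks in each whole list held that value, and its meaning is not known. Nothing is therefore read from its absence among the member peaks. A pseudogene carries the name of 1 member, DYNC1I2P1, so reads of DYNC1I2 that align as well to this copy could have been placed in either. The nearest peak outside a member span was a LacZ peak 72725 bases from DCTN1, and for the other members the nearest lay at least 335912 bases away. The choice of the span edge therefore did not decide which peaks were counted. The member peak closest to the authors' limit of 0.01 was the single-bin odd peak of DCTN1, with a deposited p-value of 0.00679.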

How the data were processed

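Peak lists of 3 pull-down libraries (even, odd and LacZ probes, 1 each) were analysed. The tools named, per the submitters' processing notes, are STAR 2.5.2b, SAMtools, Picard, bedtools, Trimmomatic and bcl2fastq 2.0.2, the build is GRCh38, and the names of the lists point to the peak caller Piranha. No source used here gives their roles or settings, or the handling of duplicate and multiply aligned reads. Lists were called per library. The signal deposited by the authors is reads per bin of 170 bases, read from the values, as all peaks held a whole number of reads (tolerance 0.02). The p-value deposited by the authors lay below 0.01 in each peak, and any correction for multiple testing is not stated. The deposited score is unnamed. All peaks are listed on the plus strand, so strand was ignored.

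Peaks were assigned to RefSeq gene spans of GRCh38.p14 by any overlap (pandas 2.3.3, scipy 1.17.1, checked on simulated intervals). Exon positions were not used here. Lists were compared by overlap of at least 1 base. With 1 library per probe set, no test was made. Members, gene lists and comparisons were chosen with earlier results of these data known. The text names the members, listed family genes with a peak, and for each member the 2 genes of most similar pattern. Genes named only as lacking a peak, and the 4 muscle markers with one, were picked after their values were seen. Alternatives tried were a p-value limit of 0.001, trimmed lists, other overlap rules, other gene assignments and other rankings.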

Additional observations from a re-analysis of the deposited data

How the results depend on the processing

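No member peak lay in more than 1 gene or held the fixed score value, the nearest outside peak was 72725 bases away, and shared peaks had identical edges. Assignment to 1 gene, spans widened by 1000 bases, leaving out the fixed value and a reciprocal overlap of 50% could therefore not change a member count, and their unchanged counts say nothing about stability. Lists trimmed to 502 peaks also could not change the 12 counts of shared places, as every shared peak ranked 290 or better. A distance of 200 bases left them as they were. Each count was of peaks of the first list of a pair, with even before odd. The odd DCTN1 peak 170 bases from the shared place could therefore not add to it, and these unchanged counts say nothing about stability either. With each peak given to 1 gene, family genes with an even peak numbered 2 in place of 3. With a p-value limit of 0.001, DCTN1 and DYNC1I2 had 0 even, odd or LacZ peaks, DYNC2I1 kept its LacZ peak and had 0 odd peaks, and DYNLRB1 kept both odd peaks. Under that limit the shared places of DCTN1 and DYNC1I2 (even and odd) and of DYNC2I1 (odd and LacZ) each became 0. Family genes with a peak then numbered 0 even, 1 odd and 2 LacZ, in place of 3, 6 and 5. This limit keeps 34.7% of all even, 25.6% of all odd and 37.0% of all LacZ peaks. In trimmed lists DCTN1 had 0 LacZ peaks and family genes with a LacZ peak numbered 2. Ranked by p-value, the DYNC2I1 LacZ peak moved to rank 110 and the DYNLRB1 odd peaks to ranks 36 and 49, and the other 9 ranks stayed within 1.5 times. Ranking by reads per peak moved none of the 12 ranks by more than that. No paired analysis was possible because each probe set had 1 library. The weakest listed peaks had 108 even, 105 odd and 38 LacZ reads per bin, and whether sequencing depth set these lower ends was not tested.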
